A study of Mus musculus with 8 samples.

Results

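Interferon-stimulated and antigen presentation genes are the genes that cells switch on after an interferon signal to block viruses and to show peptides to T cells. They were followed in 4 mouse epithelial cell lines, each measured stimulated and resting. The set was named by 36 gene symbols, and every probe set that the platform annotation gives to a symbol alone was taken, with 1 value per gene from the probe set with the highest mean over the 8 arrays. In this way 34 of the 36 genes were measured, out of 18193 genes in all. They were 26 antiviral genes and 8 antigen presentation genes. Isg15 had only a probe set shared with Gm9706 and is given apart, and Ifi44 was not analysed here. Of the 34, 32 reached the mean log2 level of 5.27 required for testing, and Mx1 and Mx2 did not.

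Stimulated cells had received recombinant human TGF-β1 at 3 ng/mL together with EGF at 3 ng/mL for 24 h in K-1 medium. Resting cells were kept without the growth factors. All cells, resting ones included, had first spent 24 h in a K-1 medium with transferrin and insulin. EpH4 is a mammary gland line that the labels mark as resistant to the epithelial-mesenchymal transition, mProx a kidney proximal tubular line, MCT a kidney tubular line and NMuMG a mammary gland line. Each line gave 1 stimulated and 1 resting array, so a change within 1 line has no replicate check, and the lines served as replicates. Each array measured a population of cells, so fewer cells carrying a transcript and less RNA per cell cannot be told apart.

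Interferons bind receptors of the Ifnar and Ifngr type, which activate JAK kinases and STAT proteins. After a type I interferon, Stat2, a second STAT protein and Irf9 form a complex that binds the interferon-stimulated response element (ISRE) of antiviral genes. After interferon gamma, STAT dimers bind another element, GAS, as in the genes of guanylate-binding GTPases. In antigen presentation the immunoproteasome cuts proteins to peptides, the Tap1 and Tap2 transporter carries them into the endoplasmic reticulum, and Tapbp helps to load them on class I molecules, whose light chain is B2m. Epithelial cells in culture can show a low level of this programme without added interferon.

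The promoters of Ifit1 and Ifit3, 2 of the genes that were lower after stimulation in each line, and of B2m, whose level hardly differed, are shown to compare the ISRE letters they carry. The sequences are the 250 bases before the annotated start, from RefSeq on GRCm38.p6, in the direction of the gene, which is the + strand for the 3 genes. Capitals mark ISRE matches, searched on both strands as GAAA, any 2 bases and GAAA, so that a match on the other strand begins with TTTC and ends with TTTC.
Ifit1, chr19:34640639-34640888: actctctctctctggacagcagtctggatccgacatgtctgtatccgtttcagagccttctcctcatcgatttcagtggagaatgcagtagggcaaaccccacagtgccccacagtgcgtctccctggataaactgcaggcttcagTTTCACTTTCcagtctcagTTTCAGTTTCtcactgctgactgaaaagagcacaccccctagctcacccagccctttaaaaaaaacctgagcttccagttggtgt
Ifit3, chr19:34583279-34583528: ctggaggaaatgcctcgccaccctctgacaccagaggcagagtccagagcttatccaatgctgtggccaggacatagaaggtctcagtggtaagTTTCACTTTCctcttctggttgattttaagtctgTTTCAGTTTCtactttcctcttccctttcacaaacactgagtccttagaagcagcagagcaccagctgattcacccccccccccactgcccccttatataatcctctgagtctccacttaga
B2m, chr2:122147437-122147686: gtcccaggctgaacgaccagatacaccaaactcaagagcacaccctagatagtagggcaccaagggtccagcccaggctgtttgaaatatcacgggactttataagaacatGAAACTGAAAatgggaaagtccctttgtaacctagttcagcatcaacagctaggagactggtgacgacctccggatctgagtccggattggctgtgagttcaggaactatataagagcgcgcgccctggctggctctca
In Ifit1 the matches begin 104 and 85 bases before the start, in Ifit3 156 and 122 bases before it, and in B2m 139 bases before it. Ifit1 and Ifit3 carry the same pair of decamers, both on the strand opposite to the gene. Windows of 300 bases, 250 before and 50 after a start, were available for 29 of the 36 symbols. An ISRE match lay in 14 of these 29, 13 of 22 antiviral and 1 of 7 antigen presentation genes, against 3.44% of the 32851 windows of all genes and 3.99% of genes. A GAS match, searched as TTCNNNGAA, lay in 10 of the 29, against 9.55% of genes. Ifit2 and Oasl2 had no ISRE match of these letters in their windows. A match is a description of letters and not a site shown to be used.

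The arrays and the lines' own markers set the frame for these values. The arrays' median signals were between 41.5 and 59.6 as deposited, and the ratio of 3' to 5' control probe sets was 1.11 to 1.20 for Actb and 0.776 to 0.823 for Gapdh. Krt18, a simple epithelial keratin, was far above the filter on each array, whereas Cdh1, epithelial cadherin, was dim in mProx and MCT. Pax8 and Cdh16 went with the kidney labels of mProx and MCT, but they were picked from 8 kidney tubule markers measured. The kidney list as a whole did not set these lines apart, with 6 of the 8 above the filter in each resting line. Krt14 and Gata3, picked from 8 mammary markers measured, were far above the filter in EpH4 alone. Of the 8, 6, 2, 4 and 5 were above the filter in resting EpH4, mProx, MCT and NMuMG. The mammary list as a whole thus hardly set EpH4 apart from NMuMG, or NMuMG from MCT. Marker levels were summed on the scale of the normalized signal plus the offset of 10.6, so each marker adds the offset to its sum. Sums of 14 leukocyte markers, 3 of them dim on each array, were 764 to 878 in stimulated and 717 to 2471 in resting cells. The highest sum was in resting mProx, where Csf1r, a macrophage receptor, was at a log2 level of 10.91. Fibroblast markers, 9 genes, summed to 525 to 835 in stimulated and 478 to 2193 in resting cells, again highest in resting mProx. Endothelial markers, 8 genes with 5 dim on each array, summed to 179 to 285 in stimulated and 198 to 242 in resting cells. Values of mProx below are to be read beside these sums, and the part they play was not tested.

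No member passed the adjusted threshold of 0.05 in the response over the 4 lines by limma, where 0% of all 12697 genes tested passed in either direction. At an unadjusted p under 0.05, 7 members were lower after stimulation, against 5.27% of all genes, and 1 was higher, against 6.18% of all genes. The 7 were Ifit1, Ifit2, Ifit3, Ddx58, Dhx58, Igtp and H2-D1, and the 1 was Oasl2. In the 3 lines not marked as resistant, 0 of the 32 members passed the adjusted threshold, where 0.0394% of genes passed higher and 0.063% passed lower by limma, 5 and 8 genes. With arrays left unscaled those were 116 and 100 genes, and with median centring 50 and 35. Unadjusted, 7 members were lower there, against 6.11% of genes, and 1 was higher, against 6.44%. Ddx58 and Dhx58 were no longer among them, and Irf9 and Rtp4 were. Of the 32 members, 6 were lower in each of the 4 lines, against 9.18% of genes, and 1 was higher in each, against 10.4% of genes.

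**Figure D1:**
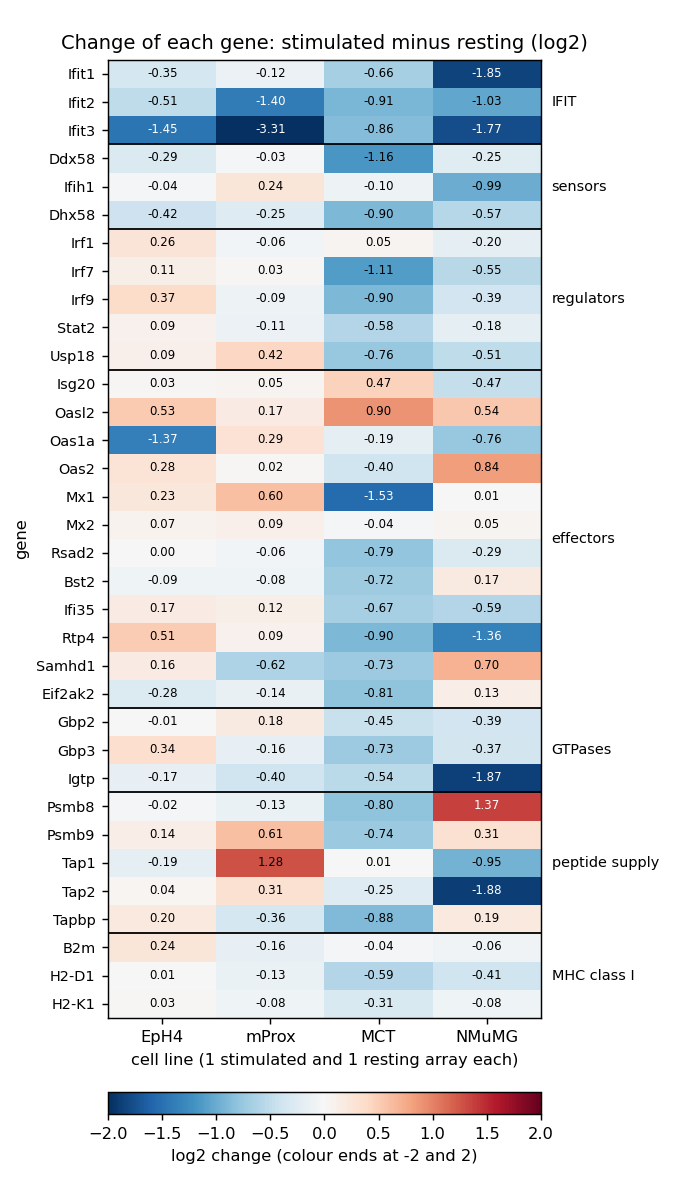
Change of each of the 34 genes in each line, stimulated minus resting, on the log2 scale, with genes grouped by role down the page and lines across it. Blue cells are lower and red cells higher in stimulated cells, and the colour ends at -2 and 2. The IFIT rows are blue in each line, and the MCT column is blue for most genes.

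The IFIT genes encode proteins that bind foreign RNA and block its translation, and they gave the lowest mean changes of any role. Ifit3 had log2 levels of 3.84, 8.07, 5.54 and 5.19 in stimulated EpH4, mProx, MCT and NMuMG, against 5.30, 11.38, 6.41 and 6.96 in the same lines at rest. Each line was lower when stimulated, but the groups overlapped, because stimulated mProx lay above resting EpH4, MCT and NMuMG. Resting mProx stood far above every other array. The change averaged -1.85 ± 1.04 (SD, n = 4 lines), 3.60-fold lower on the scale of the signal plus the offset, with limma adjusted p = 0.135. Over the 3 lines without EpH4 it was -1.98 ± 1.24 (SD, n = 3 lines) with limma adjusted p = 0.144, and without MCT, the line with the smallest change, that p was 0.0468. With arrays left unscaled it passed the limma threshold, at adjusted p = 3.14e-09 over 4 lines and 1.39e-07 over 3 lines. Limma draws each gene's variance towards that of genes of like level, so these p-values do not rest on the spread of Ifit3 between lines alone. The level in stimulated EpH4 and NMuMG lay below the filter on dim genes, so the size of these changes depends on the offset added before taking logarithms.

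Ifit2 had log2 levels of 8.41, 9.97, 8.34 and 9.84 in stimulated EpH4, mProx, MCT and NMuMG, against 8.93, 11.38, 9.25 and 10.87 at rest. It was well above the filter on each array and lower in each stimulated line, by 0.51 in EpH4 and 0.91 to 1.40 in the other lines. The mean change was -0.97 ± 0.37 (SD, n = 4 lines), with a 95% interval of -1.30 to -0.63 and limma adjusted p = 0.0895. Over the 3 lines without EpH4 it was -1.12 ± 0.26 (SD, n = 3 lines), with limma adjusted p = 0.0552. The adjusted threshold was passed with arrays left unscaled, with arrays centred on their medians, and, over the 3 lines, with a stricter filter or without MCT.

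Ifit1 had log2 levels of 5.39, 8.43, 6.45 and 6.54 in stimulated EpH4, mProx, MCT and NMuMG, against 5.74, 8.55, 7.11 and 8.39 at rest. The change was -1.85 in NMuMG and only -0.12 in mProx, the line in which Ifit3 differed most. Its mean was -0.74 ± 0.77 (SD, n = 4 lines), with limma adjusted p = 0.373, and it was -0.37 without NMuMG. The 3 IFIT genes thus had the same sign in each line, with Ifit3 furthest from 0 in EpH4 and mProx, Ifit2 in MCT and Ifit1 in NMuMG.

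**Figure D2:**
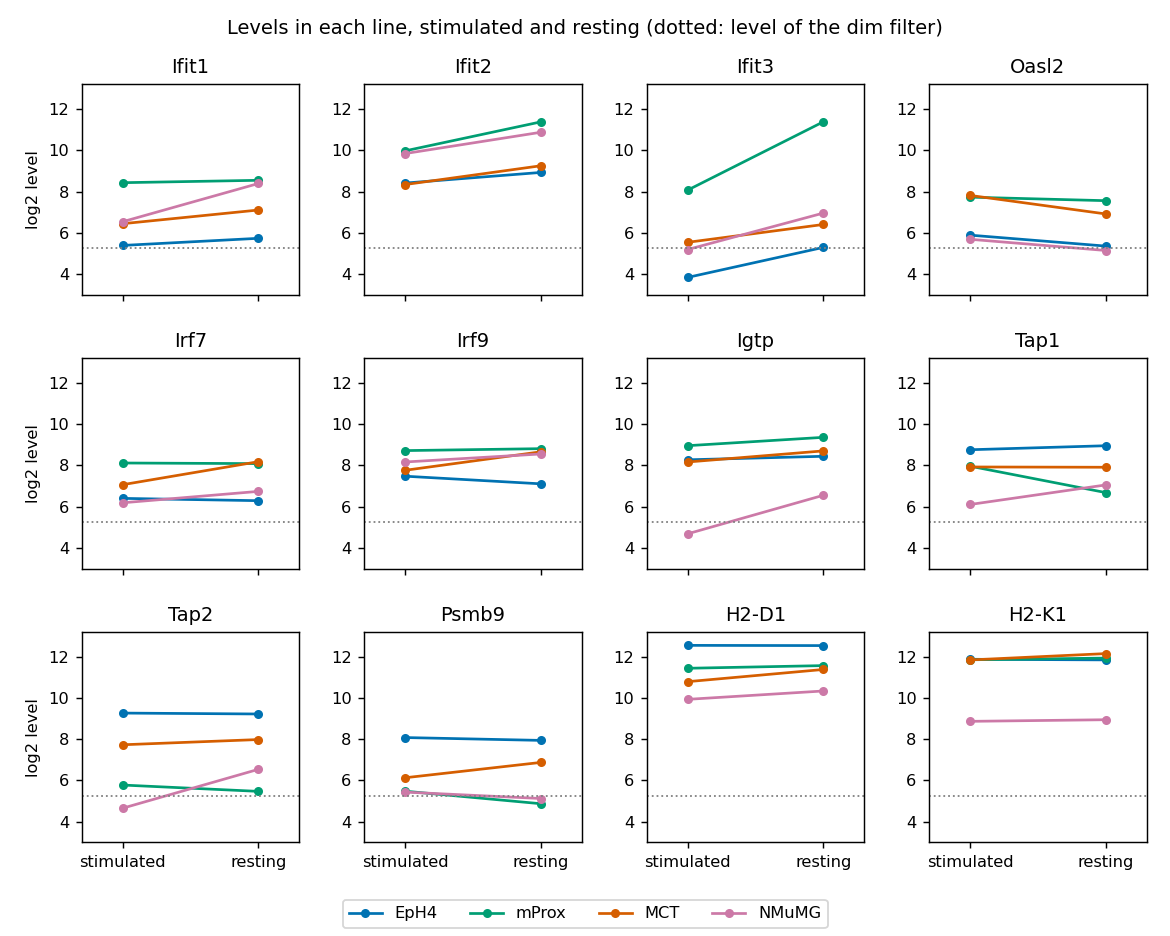
Log2 levels of 12 genes, stimulated cells on the left and resting cells on the right of each panel, with 1 line per cell line and a dotted line at the level of the dim filter, 5.27. Ifit2 and Ifit3 slope upwards towards resting cells in each line, and EpH4 lies highest for Tap1, Tap2, Psmb9 and H2-D1.

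The cytosolic RNA sensors were lower in stimulated cells of most lines, furthest in MCT for Ddx58 and Dhx58 and in NMuMG for Ifih1. Ddx58, which encodes the sensor RIG-I, had log2 levels of 9.98, 8.87, 8.26 and 8.38 in stimulated EpH4, mProx, MCT and NMuMG, against 10.27, 8.90, 9.43 and 8.63 at rest. On the probe set used, its change was -1.16 in MCT and between -0.29 and -0.03 in the other lines. The mean was -0.43 ± 0.50 (SD, n = 4 lines), with limma adjusted p = 0.427. The 2 other Ddx58 probe sets above the filter were also lowest in MCT, at -1.05 and -1.20. They were not near 0 in all other lines: 1 was at -0.83 in NMuMG and the dimmer 1 at -0.86 in both EpH4 and mProx. Dhx58, which encodes the related helicase LGP2, was lower by 0.42, 0.25, 0.90 and 0.57 in EpH4, mProx, MCT and NMuMG, a mean of -0.54 ± 0.28 (SD, n = 4 lines) with limma adjusted p = 0.373. It lay close above the filter, at 5.61 to 6.07 in stimulated and 6.20 to 6.51 in resting cells, and these ranges did not overlap. Ifih1, which encodes the sensor MDA5, was lower by 0.99 in NMuMG and differed by 0.24 or less in the other lines.

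The regulators of the programme, Irf1 excepted, were lower in stimulated than in resting MCT. Irf7, the factor that amplifies type I interferon production, had log2 levels of 6.40, 8.12, 7.07 and 6.19 in stimulated EpH4, mProx, MCT and NMuMG, against 6.29, 8.09, 8.18 and 6.74 at rest. It was thus near equal in EpH4 and mProx and lower by 1.11 in MCT and 0.55 in NMuMG. Irf9, the DNA-binding subunit of the type I complex, was 0.37 higher in EpH4 and lower by 0.09, 0.90 and 0.39 in mProx, MCT and NMuMG. Stat2, its partner, differed by 0.09, -0.11, -0.58 and -0.18 in EpH4, mProx, MCT and NMuMG, and Usp18, a protease that removes Isg15 and dampens the receptor, by 0.09, 0.42, -0.76 and -0.51. Irf1, a factor downstream of interferon gamma, differed by at most 0.26 in any line. No regulator had a limma adjusted p under 0.05 in the response over 4 lines, and Irf9 had an unadjusted limma p of 0.0468 over the 3 lines without EpH4, with an adjusted p of 0.39.

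The antiviral effectors did not move as 1 group. Oasl2, a member of the oligoadenylate synthetase family, had log2 levels of 5.89, 7.73, 7.82 and 5.69 in stimulated EpH4, mProx, MCT and NMuMG, against 5.36, 7.56, 6.92 and 5.15 at rest. It was the 1 member higher in each line, by 0.17 in mProx to 0.90 in MCT, with a mean of 0.54 ± 0.30 (SD, n = 4 lines) and limma adjusted p = 0.34. The other family members went other ways: Oas1a, a synthetase that activates RNase L, was lower by 1.37 in EpH4, where its stimulated level was dim, and 0.29 higher in mProx. Oas2 was 0.84 higher in NMuMG from a dim resting level and lower by 0.40 in MCT.

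Among the remaining effectors, Rsad2, Bst2, Ifi35 and Eif2ak2 had their lowest change in MCT. Rsad2 (viperin) was lower by 0.79 in MCT, Bst2 (tetherin), which holds budding virus at the membrane, by 0.72, Ifi35 by 0.67, and Eif2ak2, the kinase PKR that halts translation, by 0.81. Rtp4 had log2 levels of 6.89, 8.24, 7.41 and 7.10 in stimulated EpH4, mProx, MCT and NMuMG, against 6.38, 8.15, 8.31 and 8.46 at rest. It was thus 0.51 higher in EpH4 and lower by 0.90 in MCT and 1.36 in NMuMG. Samhd1, which depletes nucleotides, was 0.70 higher in NMuMG and 0.16 higher in EpH4, and lower by 0.62 in mProx and 0.73 in MCT. Isg20, an RNA exonuclease, was 0.47 higher in MCT and lower by 0.47 in NMuMG. Mx1 and Mx2, GTPases that trap virus particles, were below the filter on each of the 8 arrays, with log2 levels of 3.54 to 4.64 in stimulated and 3.79 to 5.08 in resting cells, and were not tested. The probe set shared by Isg15 and Gm9706 differed by -0.02, 0.44, -0.76 and -0.54 in EpH4, mProx, MCT and NMuMG.

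The interferon-inducible GTPases act on vacuoles that hold pathogens. Igtp had log2 levels of 8.27, 8.95, 8.16 and 4.69 in stimulated EpH4, mProx, MCT and NMuMG, against 8.44, 9.36, 8.70 and 6.55 at rest. It was lower in each stimulated line, by 1.87 in NMuMG, where the stimulated level was dim, and by 0.17 to 0.54 in the other lines. The mean was -0.74 ± 0.76 (SD, n = 4 lines) with limma adjusted p = 0.35, and it was -0.37 without NMuMG. Gbp2 and Gbp3 were lower by 0.45 and 0.73 in MCT and by 0.39 and 0.37 in NMuMG, and in EpH4 they differed by -0.01 and 0.34. A second probe set of Gbp2 above the filter had the opposite sign in EpH4 and NMuMG, at 0.17 and 0.37.

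The genes of peptide supply differed in sign between lines. Tap1 had log2 levels of 8.76, 7.96, 7.92 and 6.11 in stimulated EpH4, mProx, MCT and NMuMG, against 8.95, 6.68, 7.91 and 7.05 at rest. It was 1.28 higher in mProx and lower by 0.95 in NMuMG, so that its mean was 0.04 ± 0.93 (SD, n = 4 lines). Tap2, the other half-transporter, had log2 levels of 9.26, 5.78, 7.73 and 4.66 in stimulated EpH4, mProx, MCT and NMuMG, against 9.22, 5.47, 7.98 and 6.54 at rest. It was lower by 1.88 in NMuMG, to a dim level, and differed by no more than 0.31 in the other lines.

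The immunoproteasome subunit Psmb8 was 1.37 higher in NMuMG, where both levels were dim, at 5.07 stimulated and 3.70 resting, and it was lower by 0.80 in MCT. Its partner Psmb9 was 0.61 higher in mProx and lower by 0.74 in MCT. Psmb9 was dim in resting mProx and resting NMuMG, at 4.87 and 5.13, so the size of its changes there depends on the offset. Psmb9 and Tap1 lie head to head on chromosome 17 and their promoter windows overlap, and their changes had the same sign in mProx, at 0.61 and 1.28, and unlike signs elsewhere, at 0.14 and -0.19 in EpH4, -0.74 and 0.01 in MCT, and 0.31 and -0.95 in NMuMG. Tapbp (tapasin) was lower by 0.88 in MCT and by 0.36 in mProx, and was 0.20 and 0.19 higher in EpH4 and NMuMG. A second Tapbp probe set above the filter was at -0.21 in NMuMG. No peptide supply gene had an unadjusted p under 0.05 in either response.

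On the probe sets used, the class I chains differed by at most 0.59 in any line. B2m had log2 levels of 12.12, 12.49, 12.56 and 12.66 in stimulated EpH4, mProx, MCT and NMuMG, against 11.88, 12.65, 12.60 and 12.72 at rest. Its mean change was -0.01 ± 0.17 (SD, n = 4 lines), with a 95% interval of -0.18 to 0.17 in the limma fit. H2-D1, a class I heavy chain, had log2 levels of 12.54, 11.43, 10.78 and 9.93 in stimulated EpH4, mProx, MCT and NMuMG, against 12.53, 11.56, 11.38 and 10.33 at rest. It differed by 0.01 in EpH4 and was lower in the other lines, with a mean of -0.28 ± 0.27 (SD, n = 4 lines) and limma adjusted p = 0.388. H2-K1 was lower by 0.31 in MCT and differed by 0.08 or less elsewhere. The class I heavy chain genes are related in sequence. The probe sets used for H2-D1 and H2-K1 are marked as able to bind related transcripts, so their values may mix class I genes. Of the other H2-D1 probe sets above the filter, 4 of 6 had the same sign of mean change, and of those of H2-K1 2 of 3 had. The widest changes of these other probe sets were 1.29 and -1.47 for H2-D1 in MCT. For H2-K1 they were -0.93 in MCT and 0.77 in NMuMG.

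By line, MCT had the most members that were lower in stimulated than in resting cells. There 21 of the 32 tested members were lower by at least 0.5 on the log2 scale, against 10.5% of all genes, and 1 was higher by as much, against 9.44%. These were 17 of 24 antiviral and 4 of 8 antigen presentation genes. In NMuMG 13 of 32 were lower by that amount, against 8.47% of all genes, and 4 were higher, against 12.8%. In EpH4 3 were lower, against 5.02%, and 2 higher, against 6.25%, and in mProx 3 were lower, against 9.97%, and 2 higher, against 11.5%. The EpH4 and mProx counts were thus near the background and the MCT and NMuMG counts above it.

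Few of the MCT differences were large, whereas those of NMuMG were fewer and larger. In EpH4, 2 members were at least 2-fold lower, against 1.03% of genes. There were 2 such members in mProx, against 2.46%, 2 in MCT, against 2.72%, and 6 in NMuMG, against 1.99%. The 6 in NMuMG were Ifit1, Ifit2, Ifit3, Rtp4, Igtp and Tap2, and the 2 in MCT were Ddx58 and Irf7. At least 2-fold higher were Tap1 in mProx, the 1 such member there, against 2.79% of genes, and Psmb8 in NMuMG, again 1, against 3.02%. EpH4 and MCT had 0 such members, against 1.3% and 2.76% of genes. The MCT count was also 21 without quantile normalization, each change taken relative to the median gene of its pair. Arrays left unscaled and arrays centred on their medians give the same count there by construction, so they are 1 check. Stimulated MCT had the lowest median signal of the 8 arrays, 41.5, next to 41.8 in resting NMuMG, and the highest 3' to 5' ratio of Actb, 1.20, next to 1.18 in resting MCT. The part of these in the result was not tested, and with 1 pair of arrays the culture and the treatment cannot be told apart.

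Across the 34 members the changes of 2 lines correlated with r between 0.04, for MCT and NMuMG, and 0.52, for EpH4 and mProx. Ifit3 had the widest change in both EpH4 and mProx, -1.45 and -3.31, with a dim level in stimulated EpH4, and its part in that r was not tested. Over all tested genes the same correlations lay between 0.08, for EpH4 and mProx, and 0.27, for mProx and MCT. These are descriptions across genes, which are not independent replicates, and they rest on single pairs of arrays. Across the members, the pair with the lowest r was the pair of lines with the most lower members.

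**Figure D3:**
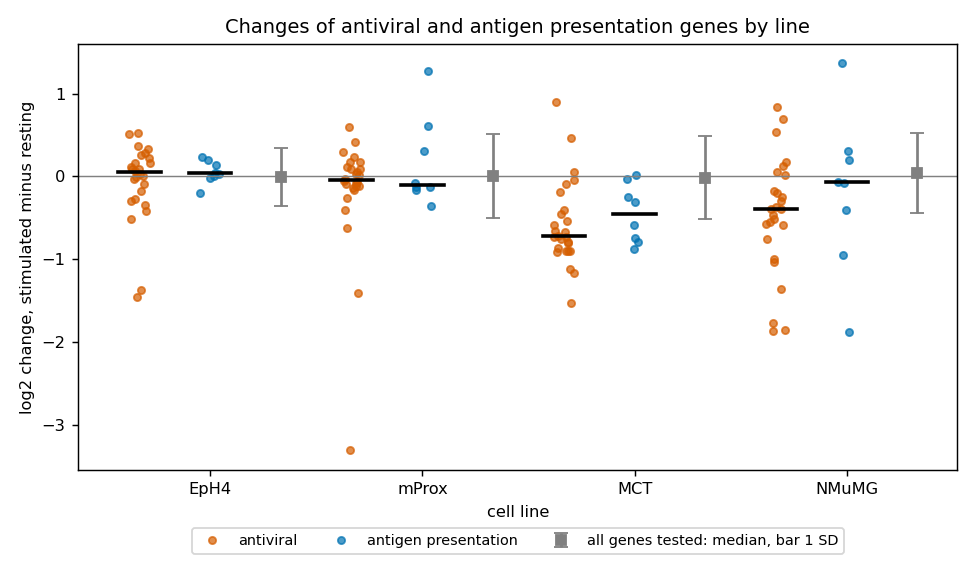
Change of each antiviral and antigen presentation gene by line, stimulated minus resting on the log2 scale, with a black bar at the median of each group and, in grey, the median of all genes tested with 1 SD of single genes. The antiviral median is -0.72 in MCT and -0.39 in NMuMG, and near 0 in EpH4 and mProx.

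Antiviral genes had a median change of -0.72 in MCT and -0.39 in NMuMG, and of 0.05 and -0.05 in EpH4 and mProx. Antigen presentation genes had medians of -0.45 in MCT, -0.07 in NMuMG, 0.04 in EpH4 and -0.10 in mProx. All genes tested had medians of -0.02 in MCT, 0.04 in NMuMG, -0.00 in EpH4 and 0.01 in mProx. The median of the mean change over the 4 lines was -0.24 for the 26 antiviral and -0.06 for the 8 antigen presentation genes, a difference of -0.18. That difference was -0.27 in MCT and -0.32 in NMuMG but 0.01 in EpH4 and 0.06 in mProx, so its sign was not shared by the lines. Without MCT the median of the mean change was -0.10 for antiviral and 0.01 for antigen presentation genes. Without the 3 IFIT genes the antiviral median was -0.22. With Irf1 and the 3 GTPases moved out of the antiviral genes it was -0.25. No test was made over the list, since the members were not drawn at random and respond to the same signals.

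Resting levels differed between the lines by up to 6.24 on the log2 scale, for Psmb8, a size that depends on the offset because Psmb8 was dim in resting NMuMG. Resting EpH4 was the highest of the 4 lines for 6 of 8 antigen presentation genes and 3 of 24 antiviral genes tested, against 31.9% of all genes. It was the lowest for 11 of 24 antiviral genes and 1 of 8 antigen presentation genes, against 24.4% of all genes. The 6 were the 5 peptide supply genes and H2-D1, and the 1 was B2m. The median of resting EpH4 minus the mean of the other 3 lines was -0.40 for antiviral genes, 1.59 for antigen presentation genes and 0.07 for all genes tested.

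Resting Psmb8 had a log2 level of 9.94 in EpH4, against 6.33, 7.22 and 3.70 in mProx, MCT and NMuMG, a difference of 4.19 from their mean. Resting Tap2 was at 9.22 in EpH4, against 5.47, 7.98 and 6.54 in mProx, MCT and NMuMG. EpH4 was above each other line for both genes, and mProx and NMuMG were the low lines. Of the antiviral genes, resting Rtp4 was at 6.38 in EpH4, against 8.15, 8.31 and 8.46, and resting Irf9 at 7.11, against 8.81, 8.66 and 8.55 in mProx, MCT and NMuMG. Here the other 3 lines lay close together and EpH4 below them. Resting Ifit3 followed another order, at 5.30, 11.38, 6.41 and 6.96 in EpH4, mProx, MCT and NMuMG, with mProx far above the rest.

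In the test of resting EpH4 against the other 3 resting lines, EpH4 is 1 array and was assumed to vary like the others. By limma 0 of 32 members passed the adjusted threshold, where 0% of genes passed higher and 0.00788% lower. Unadjusted, 2 members were higher in EpH4, Ddx58 and Psmb8, against 4.14% of genes, and 4 were lower, Irf9, Ifit1, Rtp4 and B2m, against 4.69%. In resting kidney against resting mammary lines 0 of 32 passed, where 0% of genes passed in either direction by limma. Unadjusted, 2 were higher in the kidney lines, Irf7 by 1.62 and Oasl2 by 1.98, against 4.73% of genes, and 1 was lower, Gbp2 by 1.69, against 2.65%. H2-K1 set NMuMG apart from the other lines, at 8.86 stimulated and 8.94 resting, against 11.84 to 11.87 in stimulated and 11.84 to 12.14 in resting cells of the other 3 lines.

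**Figure D4:**
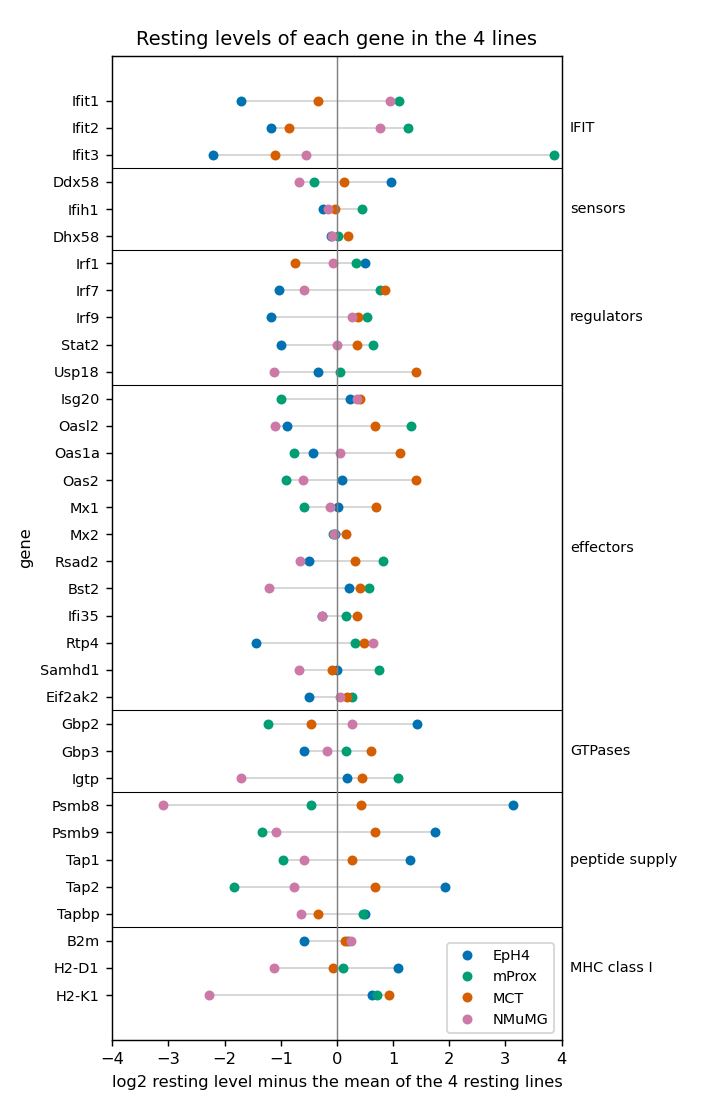
Log2 resting level of each of the 34 genes in each line minus the mean of the 4 resting lines, with genes grouped by role down the page and 1 point per line. EpH4 is to the right for the peptide supply genes and to the left for the IFIT genes, Irf9 and Rtp4.

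The differences between responses were tested as interactions. For the EpH4 response minus that of the other 3 lines, 0 of 32 members passed the adjusted threshold by limma, where 0% of genes passed in either direction. Unadjusted, 1 member was higher, B2m, by 0.33 with an adjusted p of 1.00 by limma, against 1.85% of genes, and 0 were lower, against 1.58%. EpH4 is 1 pair of arrays and was assumed to vary like the other lines, so this test cannot show that the responses are alike. For Ifit2, whose change was smallest in EpH4, the difference was 0.60 with a 95% interval of -0.07 to 1.28.

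For the kidney response minus the mammary response 0 of 32 members passed by limma, where 0% of genes passed in either direction. Unadjusted, Oas1a and Tap1 were higher, by 1.12 and 1.22, against 2.8% of genes, and Samhd1 and Tapbp were lower, by 1.11 and 0.81, against 3.13%. The Samhd1 value rests on the choice of probe set. Its other 3 probe sets above the filter gave changes of 0.41 to 0.56 in mProx and -1.71 to -0.14 in NMuMG, opposite in sign to the brightest one. The size of the Tapbp value also depends on the probe set. Its other probe set differed by 0.40, -0.06, -0.59 and -0.21 in EpH4, mProx, MCT and NMuMG, with the opposite sign in NMuMG.

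The rest of the pathway was read from lists of other genes. Of 9 interferon genes measured, 1 reached the filter, Ifnb1, with a mean change of 0.01 ± 0.22 (SD, n = 4 lines), and Ifng was dim on each array. Ifna1 was 0.16, 0.98, 0.67 and 0.45 higher in stimulated EpH4, mProx, MCT and NMuMG. It was dim on 4 arrays, those of EpH4 and of resting mProx and MCT, so these sizes depend on the offset. Ifnab, dim on each array, was lower by 0.46, 0.18, 0.81 and 0.28 in the same lines. Ifna1 and Ifnab were picked after their values were seen and were not tested. Of 15 tested receptor and JAK-STAT genes 0 passed the adjusted threshold by limma, and 0 were higher or lower unadjusted in the response over 4 lines. The receptor chains Ifnar1, Ifnar2, Ifngr1 and Ifngr2 had mean changes of 0.13, -0.17, 0.12 and -0.08, and Ifngr2 was lower by 1.00 in NMuMG. The widest mean changes among the tested genes of that list were 0.59 ± 0.85 (SD, n = 4 lines) for Ptpn6, a phosphatase that restrains JAK signals, and 0.30 ± 0.34 for Socs3, a feedback inhibitor.

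Of 12 tested genes of nucleic acid sensing upstream of interferon 0 passed, and 2 were lower unadjusted, against 5.27% of all genes. Trim25, which activates RIG-I, had the widest mean change, -0.34 ± 0.25 (SD, n = 4 lines), followed by Ticam1, an adaptor of Tlr3, at -0.32, the DNA sensor Cgas at -0.30 and Tlr4 at -0.29. Of 34 other interferon-stimulated genes tested 0 passed by limma. Unadjusted, 5 were lower, against 5.27% of all genes, and 0 higher, against 6.18%. The widest mean changes were -0.99 ± 0.52 for Slfn2, -0.63 ± 0.54 for Cmpk2, -0.55 ± 0.74 for Trim30a and -0.52 ± 0.66 for Xaf1 (SD, n = 4 lines). Slfn2 was lower by 1.73, 0.97, 0.68 and 0.58 in EpH4, mProx, MCT and NMuMG. The median change of these 34 genes and the 7 dim ones was 0.06, 0.00, -0.33 and -0.10 in EpH4, mProx, MCT and NMuMG, so that MCT was again the lowest.

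Of 16 other class I antigen presentation genes 0 passed and 0 had an unadjusted p under 0.05. Their widest mean changes were -0.17 for Psmb10, the third inducible proteasome subunit, 0.16 for Nlrc5, an activator of class I genes, -0.13 for Calr and 0.11 for Erap1. Of 4 tested class II genes 0 passed and 0 had an unadjusted p under 0.05, and H2-DMa, which edits class II peptides, had a mean change of 0.34 ± 0.72 (SD, n = 4 lines) that came from mProx, at 1.39. Known TGF-β and EGF response genes had median changes of 0.40, 0.93, 0.87 and 0.41 in EpH4, mProx, MCT and NMuMG. Of 13 tested, 9 were higher unadjusted, against 6.18% of all genes, and 1 was lower, against 5.27%, and 0 passed by limma. The list was chosen with earlier results of these data known, so it is no independent check that the cells had responded. The median antiviral change was lowest in MCT, whereas the median of these response genes was highest in mProx.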

How the data were processed

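Total RNA of 4 stimulated and 4 resting samples was hybridised to Affymetrix mouse whole-genome arrays, 1 each. The deposited values are intensities on a linear scale for 45101 probe sets, made with MAS5 per the submitters' processing notes. The MAS5 version and target scale were not stated there. From the deposited intensities, without 64 control probe sets, log2(signal + 10.6) was taken, the offset being the 25th percentile, and quantile-normalized, since array medians differed by 0.43. The offset understates changes of dim genes. Symbols came from the platform annotation. Genes at or above the 40th percentile of mean level, 5.27, entered linear models (limma 3.58.1, run under R 4.3.3) with lmFit, eBayes with an intensity trend and a Benjamini-Hochberg threshold of 0.05, with the line as block in each response, and the tests were tried on simulated data. Line names give the pairing. Both arrays of a line deviated together (correlations 0.905, 0.827, 0.812 and 0.874). The labels do not state whether lines were cultured independently more than once. The p-values reflect the variation among 4 lines alone, with the variance of each gene drawn by eBayes towards that of genes of like level. The small number of arrays limits the precision.

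The members and lists were chosen with earlier results of these data known. Members were all to be named, and of each other list the genes past the threshold, or otherwise up to 4 with the widest mean change. Alternatives were other scalings, offsets, filters and probe sets, no trend, no block and leaving out each line. Promoters came from RefSeq on GRCm38.p6.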

Additional observations from a re-analysis of the deposited data

Results flagged for a closer look

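Each of 34 genes was screened for 1 array far from the other 3 of its kind, in the stimulated levels, the resting levels and the changes, and chance flags about 1 in 20 such groups. There were 7 such levels. The 2 levels of H2-K1 in NMuMG stood low, at 8.86 stimulated and 8.94 resting, far under the other 3 lines in both conditions. Resting EpH4 stood low for Irf9, at 7.11, for Rtp4, at 6.38, and for B2m, at 11.88. Stimulated MCT stood low for Samhd1, at 9.35, and resting mProx for Isg20, at 7.85. Rtp4 and Irf9 in stimulated EpH4, at 6.89 and 7.48, were also the lowest of the 4 stimulated lines but were not set as far apart.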

How the results depend on the processing

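Sensitivity was read for the number of genes past the threshold and for the mean change of each member. With arrays left unscaled, 238 genes passed in the response over 4 lines (0 in the main analysis), 216 over 3 lines (13), 5 in the EpH4 difference (0), 21 in the kidney against mammary difference (0), 13 in resting EpH4 (1) and 6 in resting kidney against mammary (0), and 3 and 2 members passed over 4 and 3 lines. Of these, 11 of 13 in resting EpH4 were higher. The median change of all genes was then -0.25, -0.08, -0.19 and 0.29 in EpH4, mProx, MCT and NMuMG. With median centring there were 24 genes over 4 lines and 85 over 3 lines, with 1 member each. An offset of 1 gave 1 gene and an offset of 50 gave 8 over 4 lines, and 2 over 3 lines. Over 3 lines no filter gave 0, the 60th percentile 21 genes and 1 member, the mean of all probe sets 8, no intensity trend 0 and no replicate block 0, and without trend resting EpH4 gave 0. Leaving out 1 line gave 0 to 13 genes over 4 lines, 12 to 63 over 3 lines (27 without MCT, 63 without NMuMG), with 0 to 2 members (2 without MCT, Ifit2 and Ifit3), 0 to 35 in the kidney against mammary difference (17 without mProx, 35 without MCT) and 0 to 0 in resting EpH4. Members were past the threshold at adjusted p = 0.000382 (Ifit2, 4 lines, unscaled), 0.0478 (median centred), 0.0247 (Igtp, unscaled), 3.14e-09 (Ifit3, unscaled) and, over 3 lines, 0.00514, 0.0221, 0.0497 and 0.0466 for Ifit2 unscaled, median centred, at the 60th percentile and without MCT, and 1.39e-07 and 0.0468 for Ifit3 unscaled and without MCT. The sign turned for 13 of 32 members, whose mean change was near 0 or rested on 1 line. Unscaled values gave -0.0564 for Irf1, -0.0678 for Isg20, -0.0478 for Psmb8, -0.0421 for Psmb9 and -0.0598 for Tap1, an offset of 50 gave -0.0528 for Psmb8, median centring 0.0994 for B2m and the mean of probe sets 0.0137 for Samhd1. Without EpH4 Irf1 was at -0.0704. Without mProx B2m was at 0.0459, Samhd1 at 0.0451, Psmb9 at -0.0982 and Tap1 at -0.376. Without MCT B2m was at 0.00308, Bst2 at 0.00177, Isg20 at -0.129, Samhd1 at 0.0802, Tapbp at 0.0111 and Usp18 at 0.00163. Without NMuMG B2m was at 0.0123, Ifih1 at 0.0351, Oas2 at -0.0356, Psmb8 at -0.313 and Tap2 at 0.0327. The cause was not tested. The medians, over antiviral and over antigen presentation genes, of the mean change across lines moved by less than the spread between line medians in each setting. That spread, an SD of 0.35 and 0.21, was wider than the medians themselves, -0.24 and -0.06, so this measure cannot show that they were stable. Leaving out 1 line gave -0.36 to -0.10 for antiviral and -0.14 to 0.01 for antigen presentation genes. Single lines moved more: the antigen presentation median was 0.25 in NMuMG and -0.19 in EpH4 with arrays unscaled, and 0.15 in mProx with the mean of all probe sets, against -0.07, 0.04 and -0.10. Dim levels, as of Ifit3 in stimulated EpH4 and NMuMG, bound how well a change could be measured.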

Other observations

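Socs1, a feedback inhibitor of JAK kinases that is itself induced by interferon, was 0.66, 1.16 and 1.03 higher in stimulated EpH4, mProx and MCT and lower by 0.12 in NMuMG. It was picked after its values were seen, was dim on 3 of the 8 arrays and did not reach the filter, so no test was made. Ptpn6 was 1.68 higher in stimulated NMuMG and 0.83 higher in mProx, against 0.02 in MCT and -0.16 in EpH4.

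Among other interferon-stimulated genes the widest higher mean changes were those of Ifi204, 0.39 ± 0.27, and Sp110, 0.37 ± 0.49 (SD, n = 4 lines), also picked after their values were seen. Ifi204 differed by 0.04, 0.67, 0.39 and 0.47 in EpH4, mProx, MCT and NMuMG, so its sign in MCT and NMuMG was opposite to that of the antiviral medians there.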
